A study of Schizosaccharomyces pombe with 8 samples.

Results

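The RNA interference (RNAi) machinery of the fission yeast Schizosaccharomyces pombe was followed here through 10 genes, chosen by name for their role: ago1 (SPCC736.11), dcr1 (SPCC188.13c), rdp1 (SPAC6F12.09), hrr1 (SPCC1739.03), cid12 (SPCC663.12), chp1 (SPAC18G6.02c), tas3 (SPBC83.03c), ers1 (SPCC1393.05), arb1 (SPAC140.03) and arb2 (SPAC13G7.07). They are 10 of the 5129 genes listed in each of 2 tables, and each of them is listed with a mean above 0 in both tables. Poly(A)-selected RNA was sequenced in 8 libraries, and each of the 4 groups (labels WT and seb1-1, epe1KO and epe1KO_tfs1DN) has 2 of them. The seb1-1 strain carries a viable mutant allele of seb1, whose product binds RNA and accompanies RNA polymerase II. Both remaining groups are labelled as lacking epe1, which encodes an antagonist of heterochromatin, and the second of them also carries tfs1DN, a dominant-negative allele of tfs1, the gene of the elongation factor TFIIS. In the study tfs1DN was driven by the thiamine-repressible nmt1 promoter from a copy at leu1. The study reports that high expression was lethal in cells lacking epe1, so thiamine was kept present. By its account, repression was leaky, and most tfs1 transcripts came from the wild-type allele in thiamine. The RNA of the epe1KO_tfs1DN group came from a single isolate. Cells were grown in a rich medium with glucose.

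In fission yeast, RNAi keeps the pericentromeric repeats silent. Transcripts of the repeats are copied into double-stranded RNA by the RNA-directed RNA polymerase complex (RDRC), which consists of the polymerase Rdp1, the helicase Hrr1 and the nucleotidyltransferase Cid12. Dcr1, the Dicer nuclease, cuts this RNA into small RNAs, and the Argonaute protein Ago1 receives them in the chaperone complex ARC, with Arb1 and Arb2. Ago1 then acts in the RITS complex with the chromodomain protein Chp1 and with Tas3, which joins both, and guides the complex to nascent transcripts, from where a histone H3 methyltransferase is recruited. Ers1 links the RNAi factors to heterochromatin.

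Each table gives, for each gene, the authors' mean normalized count over the 4 libraries of a pair of groups. The first table covers WT and seb1-1, the second epe1KO and epe1KO_tfs1DN. There is no value per library or per group, so a level is a single value with no replicate error, and no difference can be set against the spread between libraries. The difference between seb1-1 and WT and that between epe1KO_tfs1DN and epe1KO were not analysed here, since they stand in the tables only as the authors' own comparisons. The listed means summed to 22456953 in the first table and to 15644260 in the second, and the depth per library is unknown. The targeted gene epe1 had an authors' mean of 712 in the WT and seb1-1 pair and of 706 in the libraries labelled epe1KO and epe1KO_tfs1DN. A loss of epe1 is thus not seen in this mean. Both groups pooled in it are labelled epe1KO, so the mean and the labels disagree as far as a full deletion of epe1 in both groups is meant. Which group the reads came from, how much of the gene was deleted and whether counting used the strand are unknown. The reason for the disagreement was not tested. Those libraries are named by their labels only.

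All 10 RNAi genes lay in the lower part of the expression range in both pairs. To compare genes, each authors' mean was divided by the length of the longest annotated transcript and is given per kb. In the WT and seb1-1 pair, 10 of 10 lay below the median of the listed genes, which was 481 normalized counts per kb. In the epe1KO and epe1KO_tfs1DN pair, 10 of 10 lay below the median of 525 per kb. The median percentile of the members among 5109 listed genes with a length was 17.4 in the former pair and 13.3 in the latter. Together the 10 genes made up 0.0214% of the summed means in the first table and 0.0346% in the second. Their own means summed to 4817 and 5408. The shares thus differ mainly through the sums over all listed genes, 22456953 and 15644260, and show no rise particular to the RNAi genes.

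**Figure D1:**
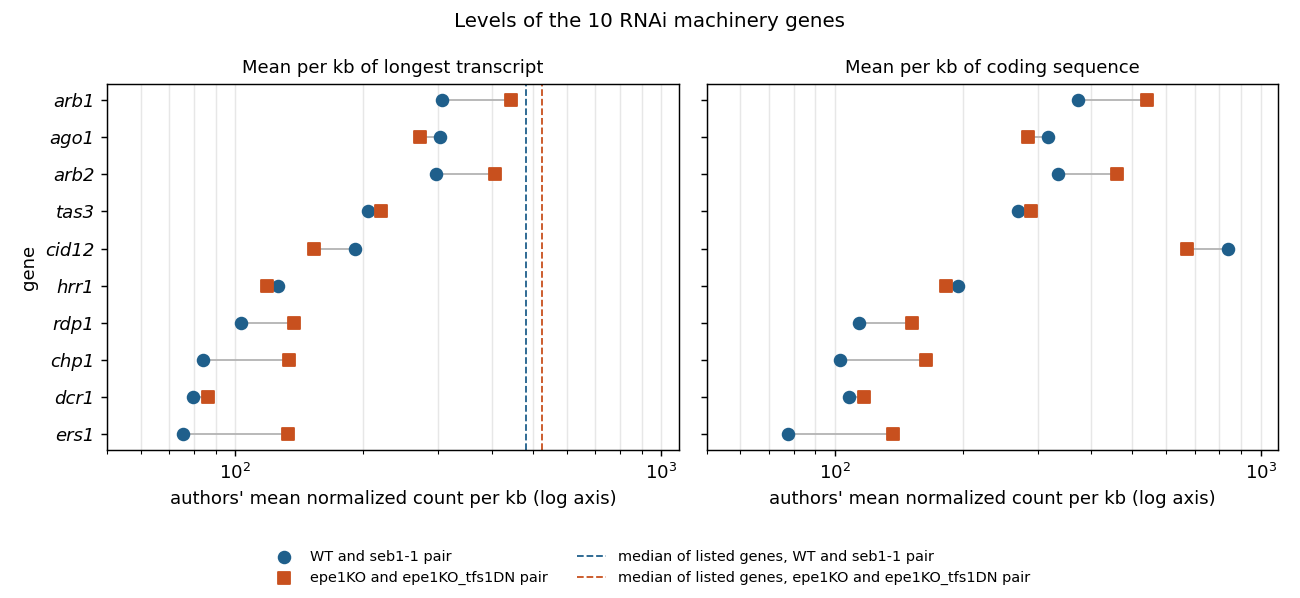
Authors' mean normalized count per kb (horizontal log axis) of each RNAi gene, divided by the longest transcript (left) or the coding sequence (right); circles are the WT and seb1-1 pair, squares the epe1KO and epe1KO_tfs1DN pair, and dashed lines the medians of the listed genes. On the left all 10 genes lie left of both medians, and cid12 moves from the middle to the highest place on the right.

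The ARC genes had the highest levels per kb of transcript. For arb1, which encodes an Argonaute-binding protein that restrains the release of the small RNA's partner strand, the authors' mean was 446 in the WT and seb1-1 pair and 650 in the other pair, which is 305 and 445 per kb. It held the first place among the members in both pairs, at percentiles 35.1 and 44.2 of the listed genes. The other Argonaute-binding protein gene, arb2, had authors' means of 323 and 444, or 297 and 408 per kb. For ago1, which encodes the sole Argonaute protein of this yeast, the authors' means were 791 and 711, or 302 and 271 per kb. The 3 ARC genes thus lay within 2.91% of each other per kb in the WT and seb1-1 pair, while arb1 was 1.64 times as high as ago1 in the epe1KO and epe1KO_tfs1DN pair.

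The RITS genes spread more widely. The level of ago1 was 3.60 times that of chp1 per kb in the WT and seb1-1 pair and 2.03 times in the epe1KO and epe1KO_tfs1DN pair. The gene of the linker protein, tas3, lay between them, with authors' means of 445 and 477, or 205 and 219 per kb. That placed tas3 in place 4 in both pairs, at percentiles 22.7 and 21.8. The chromodomain gene chp1 had authors' means of 297 and 472, or 83.9 and 133 per kb, and its percentile was 9.42 in the first pair and 12.1 in the second.

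The RDRC genes took places 5 to 9 among the members. The polymerase gene rdp1 had authors' means of 417 and 555, or 103 and 137 per kb. For the helicase gene hrr1 they were 583 and 547, or 126 and 118 per kb. For cid12 they were 847 and 678, or 191 and 153 per kb. The ratio of the highest to the lowest RDRC gene was 1.85 in the WT and seb1-1 pair, for cid12 over rdp1, and 1.29 in the other pair, for cid12 over hrr1.

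Of all members, cid12 depended most on the length used. Its longest annotated transcript measures 4435 bases and its coding sequence 1011, so that 3424 bases lie outside the coding sequence. Per kb of coding sequence, cid12 was the highest of the 10 genes in both pairs, at 838 and 671, and at percentiles 54.4 and 44.0. It was then the 1 member above the middle gene in the WT and seb1-1 pair. How many of its reads fall on the long non-coding part cannot be read from a mean per gene. The other members changed place among themselves by at most 3 ranks between both lengths.

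In the WT and seb1-1 pair the lowest levels per kb were those of ers1, dcr1 and chp1, and in the epe1KO and epe1KO_tfs1DN pair those of dcr1 and hrr1, followed by ers1 and chp1. For dcr1, the Dicer gene, the authors' means were 446 and 483, or 79.5 and 86.1 per kb, which is percentile 8.81 in the WT and seb1-1 pair and 7.91 in the other. It was the lowest member in the epe1KO and epe1KO_tfs1DN pair. In the WT and seb1-1 pair the lowest was ers1, with authors' means of 222 in that pair and 392 in the other, or 75.3 and 133 per kb. From arb1 to the lowest member the range per kb was 4.06-fold in the first pair and 5.17-fold in the second.

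Some neighbours in the order were close. In the WT and seb1-1 pair arb1 was 1.17% above ago1, ago1 1.72% above arb2, chp1 5.51% above dcr1 and dcr1 5.57% above ers1. In the other pair rdp1 was 2.87% above chp1 and chp1 0.413% above ers1. The widest steps were those from cid12 to hrr1 in the first pair, a ratio of 1.51, and from arb2 to ago1 in the second, also 1.51. Without values per library, it cannot be said which of these neighbours differ beyond their spread. In both pairs arb1 held place 1, tas3 place 4 and cid12 place 5, and the other 7 members held different places.

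**Figure D2:**
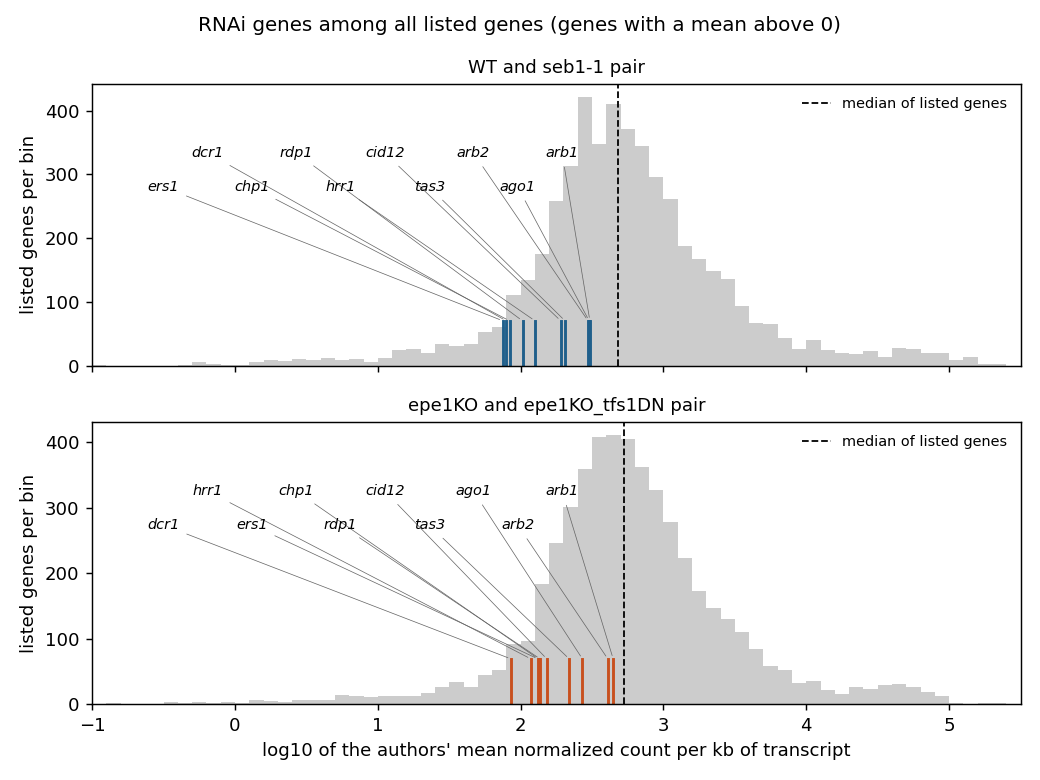
Number of listed genes in each bin of the log10 of the authors' mean per kb of transcript, for the WT and seb1-1 pair (top) and the epe1KO and epe1KO_tfs1DN pair (bottom); coloured lines mark the RNAi genes and the dashed line the median of the listed genes. The members run from 75.3 (ers1) to 305 (arb1) per kb in the top panel and from 86.1 (dcr1) to 445 (arb1) in the bottom panel, all left of the dashed line.

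The RNAi genes are long. The median of their longest transcripts was 3244 bases, against 1682 over the listed genes. Of the members, 8 of 10 exceeded 1682, the exceptions being arb1 at 1460 and arb2 at 1088. Median lengths above 1682 were also found in the 3 lists of related factors read below. They were 2296 for RNAi accessory factors, 2549 for the methyltransferase complex with HP1 proteins and 2470.5 for SHREC with histone deacetylases. Undivided, the authors' means of 10 of 10 members still lay below those of the middle gene, at percentiles from 14.5 for ers1 to 49.1 for cid12 in the WT and seb1-1 pair. In the other pair they ran from 18.0 for ers1 to 37.5 for ago1. At least 1 intron is annotated in 6 of the 10 genes, or 60%, against 48.3% of the listed genes, and ers1 has the most, with 11 exons. Of the 10 genes, 5 lie on chromosome III, 4 on chromosome I and tas3 on chromosome II.

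Transcripts on the opposite strand overlap the members in the annotation. Each of the 10 genes overlaps at least 1 gene on the other strand, as do 89.9% of the listed genes. A protein-coding gene is among them for 5 of 10 members, against 37.6% of the listed genes. The largest such overlap is that of cid12 with trp663, of 2153 bases, and cid12 shares another 657 bases with naa50, which encodes an acetyltransferase of protein N-termini. In the authors' tables trp663 had means of 5.52 and 4.86, and naa50 of 814 and 1128. The overlap of dcr1 with the septin gene spn6 spans 1903 bases, and spn6 had authors' means of 16.8 and 32.9. The overlap of hrr1 with dms1 spans 1321 bases, and dms1 had authors' means of 695 and 1010, both above those of hrr1. The overlaps of ers1 with ipi1 and of arb2 with crb3 are short, at 61 and 24 bases. The libraries were directional, but none of the sources used here gives the strand setting of the counting, so a share of opposite-strand reads in the means of cid12, hrr1 and dcr1 was not tested.

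Between the pairs, the members' ratios lay on both sides of the middle of all genes, with no replicate error to judge them by. The tables were normalized separately, so the ratio of the means was centred on its median over 4936 genes with a mean of at least 10 in both tables. On this log2 scale, ers1 was at 0.71, chp1 at 0.56, arb1 at 0.43, arb2 at 0.35 and rdp1 at 0.30, where a value above 0 is a higher level in the epe1KO and epe1KO_tfs1DN pair. The ratios of dcr1 and tas3 lay at 0.0028 and -0.012, next to the middle of all genes. The other RDRC genes and ago1 lay on the other side, with log2 ratios of -0.20 for hrr1, -0.27 for ago1 and -0.43 for cid12. In all, 6 of 10 members were above 0. Absolute log2 ratios below 0.5 were found for 8 of 10 members and for 54.1% of the genes compared, and 10 of 10 members lay between percentiles 5 and 95 of those genes, at -1.23 and 1.18.

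**Figure D3:**
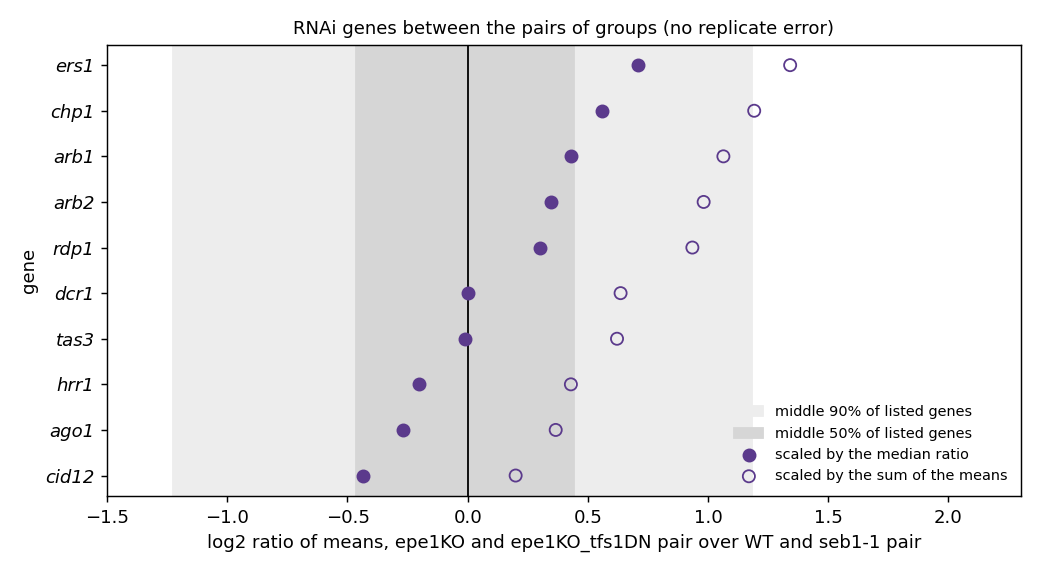
Log2 ratio of the authors' means, epe1KO and epe1KO_tfs1DN pair over WT and seb1-1 pair, for each RNAi gene (points), scaled by the median ratio of all genes (filled) or by the sums of the listed means (open); the shaded bands hold the middle 50% and 90% of the listed genes under the first scaling. Filled points run from -0.43 (cid12) to 0.71 (ers1). All open points lie above 0, as does the median of all genes under that scaling, at 0.63.

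These ratios depended on the scaling. With the sums of the listed means as the scale, all genes moved up by the same amount, and their median moved to 0.63. Percentile 25 of the genes compared, at -0.46 under the median scaling, then lay above 0 too. Likewise 10 of 10 members were above 0, from 0.20 for cid12 to 1.34 for ers1, so that hrr1, ago1, cid12 and tas3 changed side. The order of the members does not depend on the scaling. The pairs differ in every allele their groups carry and may differ in other ways that the labels do not give, so an effect of epe1, tfs1DN or seb1-1 on these ratios cannot be told apart from the rest, and no test was possible.

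Other factors of the same pathways were read in the same way, and their levels per kb reached both below and above the range of the RNAi genes. Of 5 RNAi accessory factors, 4 lay below the median of the listed genes in each pair. Their levels ran from tri1, the gene of a nuclease that trims small RNAs, at 44.5 and 65.1 per kb, to dsh1 in the first pair, at 502, and to cid14, a polyadenylation polymerase gene, in the second, at 552. The gene stc1, whose product connects RNAi to the methyltransferase complex, was at 195 and 283 per kb. Among 7 genes of the methyltransferase complex CLRC and of HP1 proteins, 6 lay below the median in each pair. The exception was swi6, the main HP1 gene, at 1640 and 1193 per kb. The gene of its relative chp2 was the lowest in the first pair, at 87.6, but was at 244 in the second. There the lowest was the methyltransferase gene clr4, at 101, beside 140 in the first pair. Of 6 genes of the SHREC complex and histone deacetylases, 4 lay below in the first pair and 5 in the second, from mit1 at 55.9 and 54.0 to clr6 at 784 and 952. The median percentiles of these lists per kb were 21.7, 15.3 and 24.6 in the WT and seb1-1 pair, beside 17.4 for the RNAi genes. In the epe1KO and epe1KO_tfs1DN pair they were 28.7, 16.1 and 24.3, beside 13.3 for the RNAi genes, and no difference between the lists was tested.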

How the data were processed

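Poly(A)-selected RNA of 8 libraries was sequenced on directional libraries, aligned by the authors with TopHat and compared with DESeq2. Per the labels the build was ASM294v2. None of the sources used here gives the counting tool, the program versions or whether counting used the strand. The authors deposited 1 table per pair of groups, with a signal per gene that is the mean of the read counts of 4 libraries after division by size factors. The other 5 columns of values in each table hold the authors' own comparison (log2 fold change, its error, a test statistic and p-values) and were not used. Depth per library is unknown, so no counting interval is given.

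Means were read with pandas 2.3.3 in Python 3.11.15. IDs were matched to the RefSeq annotation of assembly ASM294v3, which gave symbols, lengths and overlaps for 5109 of 5129 genes. As the builds differ, no coordinates or sequences are given. The gene ers1 was named with the ID SPAC1393.05, which the tables do not list, and was taken under SPCC1393.05, the ID that the annotation pairs with this name. A percentile is the share of the other genes with a lower level. Ratios between tables were centred on the median log2 ratio of genes with a mean of at least 10 in both, with no pseudocount. The functions were tested on simulated data. No test across genes was run. The genes named are the 10 members and genes of 3 lists, with the coding genes that overlap members added after their values were seen. Members and lists were chosen with earlier results of these data known. Alternatives were the coding length, no length, genes with a mean of at least 10 only, other scalings, no filter and a pseudocount of 1.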

Additional observations from a re-analysis of the deposited data

How the results depend on the processing

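The finding that the RNAi genes lie below the median of the listed genes held in 10 of 10 members under the alternatives, except that 9 of 10 lay below per kb of coding sequence in the WT and seb1-1 pair. The median percentile of the members in that pair was 17.4 per kb of transcript, 17.5 per kb of coding sequence, 27.5 without division by length and 14.6 among genes with a mean of at least 10 only. In the epe1KO and epe1KO_tfs1DN pair it was 13.3, 16.1, 24.9 and 10.8. The number of members with a higher level in the epe1KO and epe1KO_tfs1DN pair, relative to all genes, was 6. With scaling by the sums of the listed means, which put the median of all genes at 0.63, this number was 10. It was 7 by the upper quartile and without scaling, 5 without the filter on low means and 6 with the pseudocount. The change to 5 and those to 7 rest on dcr1 and tas3, whose ratios lay next to 0. No paired analysis was possible because the columns hold means over 4 libraries and carry no replicate numbers. For the same reason no library could be left out, and neither the spread between libraries nor the depth behind a mean is known.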
